A study of Mus musculus with 4 samples.

Results

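The 54 genes described here encode the glucose transporters, glycolytic enzymes, pentose phosphate enzymes, pyruvate-handling enzymes, citrate cycle enzymes and glycogen enzymes, in 9 pathway groups. They were chosen by name as members of these pathways, whether or not a methylated Pontin peak lay near them, from the 21911 protein-coding genes of the GENCODE vM21 annotation. A gene was said to have a peak when a peak centre lay within 2.5 kb of any of its transcription start sites (TSSs). For the remaining genes the nearest peak was taken.

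Mouse embryonic fibroblasts (MEFs) were grown in normal media or under glucose starvation, and from each condition the chromatin pulled down with the methylated Pontin antibody and its input were sequenced, giving 4 libraries in all and 1 of each kind. The values analysed are those of the methylated Pontin ChIP under glucose starvation, and the input entered through the ratios that the authors computed. The ChIP in normal media was not analysed here, so no value below describes a response to starvation. The list holds 4311 peaks of 481 bp on GRCm38 (mm10), called from 20765512 tags (aligned reads). The signal of a peak is its number of tags per 10000000 tags of the library. With no replicate, no p-value could be given, and the 95% intervals below cover counting error alone. A peak list holds no expression, so the cell type could not be checked against markers and no statement on transcript levels is possible.

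Glycolysis splits glucose into pyruvate in the cytosol, the pentose phosphate pathway branches from it to make NADPH and ribose phosphate, and pyruvate enters the mitochondrial citrate cycle through the pyruvate dehydrogenase complex. Several of these genes are classic targets of the hypoxia-inducible factor HIF-1, and glucose shortage is known to shift cells from glycolysis towards oxidation of other fuels. Pontin is an ATPase that works in chromatin complexes such as that of the acetyltransferase Tip60, and the antibody used here recognizes Pontin whose arginines have been methylated by CARM1.

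The sequences under the peaks differed widely in base composition, and 5 of them are shown in part, read 5′ to 3′ from the GRCm38 assembly. Each stretch begins and ends outside annotated exons, and those of Pck2 and Pgam1 are the 300 bp about the peak centre. The stretches of Pfkm, Pgls and Suclg2 come from the peaks with the highest signal among the glycolytic, pentose phosphate and citrate cycle genes. The Pck2 stretch comes from the highest peak of the 54 genes and the Pgam1 stretch from the peak with the lowest GC content, and both were picked after their values were seen. They lie at chr15:98093252-98093282 (plus strand, intron of Pfkm and of Senp1), chr8:71592131-71592175 (plus strand, just upstream of Pgls), chr6:95718398-95718688 (minus strand, intron of Suclg2), chr14:55539364-55539663 (plus strand, intron of Gm10876, upstream of Pck2) and chr19:41911358-41911657 (plus strand, intergenic, upstream of Pgam1). Capitals mark the motif GCGGGAA, read on the opposite strand, in the Pfkm stretch and the motif ACGTG, read on the opposite strand, in the Pgam1 stretch.
Pfkm: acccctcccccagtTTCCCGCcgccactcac
Pgls: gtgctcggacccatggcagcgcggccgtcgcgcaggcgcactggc
Suclg2: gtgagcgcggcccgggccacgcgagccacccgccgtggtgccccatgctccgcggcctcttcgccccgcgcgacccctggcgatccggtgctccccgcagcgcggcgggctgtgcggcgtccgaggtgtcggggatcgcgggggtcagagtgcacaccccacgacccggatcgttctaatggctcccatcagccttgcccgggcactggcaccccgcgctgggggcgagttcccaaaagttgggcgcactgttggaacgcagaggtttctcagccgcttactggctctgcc
Pck2: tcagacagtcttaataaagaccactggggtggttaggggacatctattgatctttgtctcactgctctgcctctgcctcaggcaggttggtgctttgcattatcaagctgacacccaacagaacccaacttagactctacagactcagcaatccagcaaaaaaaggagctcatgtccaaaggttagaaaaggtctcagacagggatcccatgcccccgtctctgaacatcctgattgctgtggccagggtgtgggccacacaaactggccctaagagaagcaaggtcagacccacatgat
Pgam1: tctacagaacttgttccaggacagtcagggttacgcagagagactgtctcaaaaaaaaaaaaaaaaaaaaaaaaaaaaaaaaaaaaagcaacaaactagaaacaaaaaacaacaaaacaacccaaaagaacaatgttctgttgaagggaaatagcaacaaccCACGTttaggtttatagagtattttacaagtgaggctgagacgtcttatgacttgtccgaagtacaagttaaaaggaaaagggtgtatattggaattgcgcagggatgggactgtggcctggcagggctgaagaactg
The Pgls and Suclg2 stretches have a GC content of 77.8% and 71.8%, against 50% for Pck2 and 37.7% for Pgam1. The Pgam1 stretch contains a long run of adenines near its start. In the central 200 bp, the Pgam1 peak had a GC content of 29.5%, below that of nearly all promoter peaks of other genes (percentile 0.0939 of 3196), while its promoter as a whole had a GC content of 59.4%.

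Methylated Pontin peaks lay at 16 of the 54 genes, or 29.6% (Wilson interval 19.1 to 42.8%), against 17.1% of the 21857 other protein-coding genes (3727 genes, Wilson interval 16.6 to 17.6%). Other genes whose promoters had the same GC content had a peak in 22.2% of cases, which would be 12.0 of 54 genes. This share lay inside the interval around that of the 54 genes, so the difference of 7.4 percentage points (−3.1 to 20.6) was within counting error. When other genes were matched on the number of their TSSs as well as on GC content, the difference was 3.7 points. The 54 genes had more annotated TSSs than other genes, with a median of 6 both with and without a peak, against 5 and 3. Among genes with 5 or more TSSs, 26.3% of the 38 genes of the list and 27.1% of other genes had a peak. Among genes with fewer, the shares were 37.5% of 16 and 11.5%. These shares by number of TSSs are not matched on GC content, whose median was 58.8% in the 54 genes and 54.7% in other genes.

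The citrate cycle group, which also holds cytosolic isozymes such as Idh1, had the most peaks. They lay at 6 of 15 genes (40%, Wilson interval 19.8 to 64.3%), where other genes of like promoter GC content had 22.5%. Among the glycolytic enzymes, 4 of 15 genes had a peak (26.7%, interval 10.9 to 52.0%, 21.2% at like GC content). The pentose phosphate group had 2 of 6, as did pyruvate dehydrogenase and its kinases (33.3% each, interval 9.68 to 70.0%). Of the small groups, the fructose 2,6-bisphosphate enzymes had a peak at 1 of 3 genes. Pyruvate carboxylase and phosphoenolpyruvate carboxykinase (PEPCK) had 1 of 2. The glucose transporters had 0 of 2, the lactate dehydrogenases 0 of 2 and the glycogen enzymes 0 of 3. The interval of each group contained the share of other genes at like GC content, so no group differed from those genes beyond counting error. The intervals of all groups overlapped, but differences between pathways were not tested. The groups of 2 or 3 genes have intervals too wide to tell them apart.

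**Figure D1:**
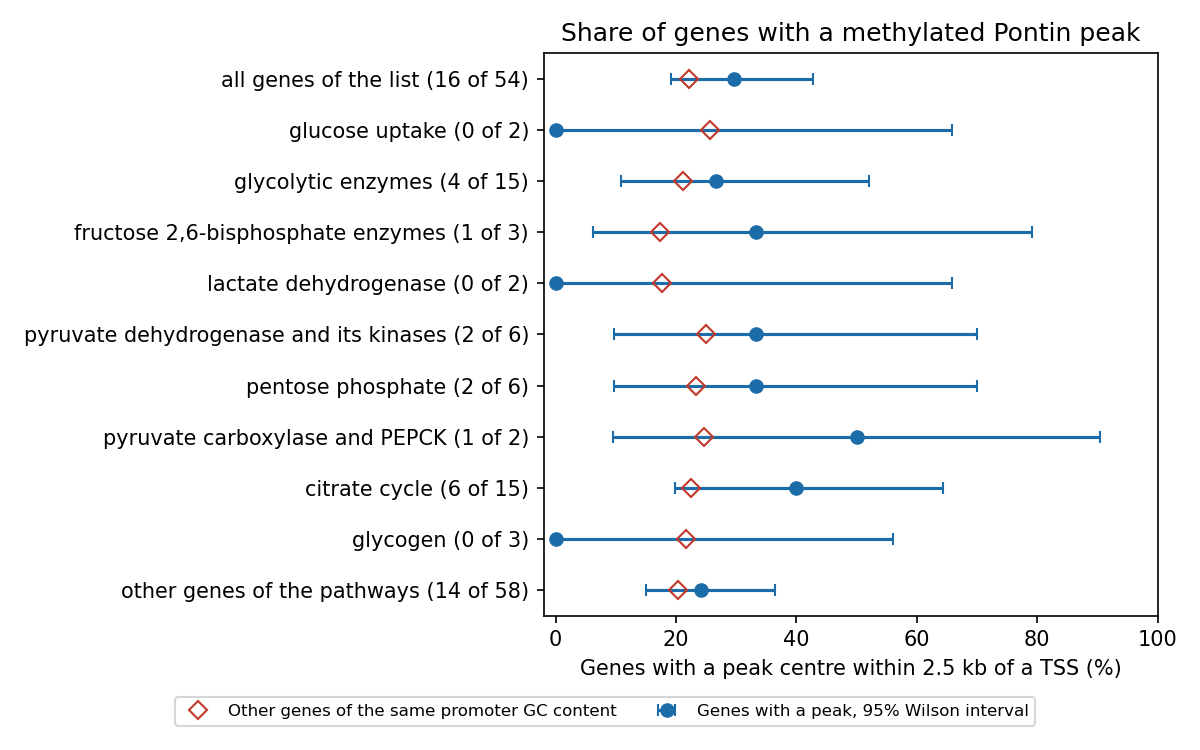
Share of genes with a methylated Pontin peak (x axis, %) for all 54 genes, each pathway group and the 58 further genes of the same pathways (y axis, number with a peak in brackets), as points with 95% Wilson intervals, beside diamonds for other genes at like promoter GC content. The citrate cycle lies at 40% and glycolysis at 26.7%, and each interval spans its diamond.

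Among the citrate cycle genes, all 3 subunit genes of succinyl-CoA ligase, the enzyme that makes ATP or GTP from succinyl-CoA, had a peak. Suclg2, the subunit specific for GTP, had a signal of 20.0 (interval 14.4 to 27.1, 41.5 tags) at chr6:95718398-95718878, 162 bp downstream of its TSS and 12.9-fold over input. Suclg1, the subunit shared by both forms, had 13.5 (8.97 to 19.5) at chr6:73248230-73248710, 88 bp downstream of the TSS and 4.98-fold over input. Sucla2, the subunit specific for ATP, had a pair of peaks with 15.7 (10.8 to 22.1) and 15.2 (10.4 to 21.5). The signals of the 3 genes did not differ beyond counting error, the ratio of Suclg2 to Suclg1 being 1.48 (0.896 to 2.48) and that of Suclg2 to Sucla2 1.27 (0.786 to 2.08). These genes are singled out after their values were seen, and no test was made.

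The Sucla2 peaks marked different start sites of the gene. The peak with the higher signal was centred 189 bp upstream of the gene start. Of the 32-base stretches of this peak, 32% occur more than once in the genome, the highest share among the peaks of the 54 genes. The other peak, at chr14:73552681-73553161, lay 27602 bp into the gene and 155 bp downstream of an internal TSS, and held no repeated stretch.

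Cs, which encodes citrate synthase at the entry of the cycle, had a signal of 15.7 (10.8 to 22.1) at chr10:128338017-128338497, 447 bp downstream of its TSS. Idh3b, a regulatory subunit of the NAD-dependent isocitrate dehydrogenase, had 12.5 (8.16 to 18.3) at chr2:130284142-130284622, with its centre 33 bp from the TSS, the closest of the peaks. Idh1, the NADP-dependent isocitrate dehydrogenase of the cytosol, had 11.1 (7.04 to 16.6) at chr1:65185880-65186360, and the TSS of Pikfyve lay 563 bp from that centre. The other isocitrate dehydrogenase genes had no peak within the limit, with the nearest at 25.5 kb for Idh3a, 82.6 kb for Idh2, the mitochondrial NADP-dependent enzyme, and 468 kb for Idh3g. Peaks were also out of reach of both malate dehydrogenase genes, at 188 kb for Mdh1 and 90.3 kb for Mdh2, and of Fh1, the fumarase gene, at 1818 kb. Aco1, Ogdh and Dlst had their nearest peak at 49.8, 23.0 and 16.2 kb.

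In glycolysis, the isozyme genes of a reaction differed in whether a peak lay within the limit, although the count of 4 of 15 was near that of other genes at like GC content. Hk1, the broadly expressed hexokinase, had a peak and Hk2 did not (nearest at 73.2 kb). Pfkm, the muscle-type phosphofructokinase, had a peak, whereas Pfkl and Pfkp had their nearest at 415 and 394 kb. Aldoa, the main aldolase, had a peak and Aldoc did not. Pgam1, a phosphoglycerate mutase gene, was the only gene with a peak among the 7 that act after aldolase in this group, since Tpi1, Gapdh, Pgk1, Eno1, Eno2 and Pkm had none. This absence in the list says only that no region near them passed the authors' limits. The isozyme contrasts rest on the rule, since Hk1 lost its peak at a limit of 1 kb, Pfkm lost its peak when the nearest TSS alone counted, and Aldoc gained a peak at 5 kb.

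Pfkm carried the strongest of these peaks, with a signal of 27.4 (20.7 to 35.5, 56.9 tags, 11.8-fold over input) at chr15:98093186-98093666. Its centre was 782 bp downstream of the nearest Pfkm TSS, in an intron, but 56 bp from the TSS of Senp1, a SUMO protease gene read in the opposite direction. When a peak was counted for the gene of its nearest TSS alone, it was therefore a Senp1 peak. Pgam1 had a signal of 18.5 (13.1 to 25.3, 6.85-fold over input) at chr19:41911268-41911748, 415 bp upstream. Hk1 had 14.0 (9.38 to 20.1) at chr10:62320160-62320640, in an intron 59508 bp into the gene and 2007 bp upstream of an internal TSS. It was the peak farthest from a TSS among those counted, and its fold over input, 36.1, was the highest. Its input level of 0.387 on the same scale was near the lowest under promoter peaks of other genes (0.367). Aldoa had 13.7 (9.14 to 19.7) at chr7:126799495-126799975, 301 bp downstream of a TSS, and the TSS of Fam57b lay 2067 bp from the centre. The ratio of Pfkm to Hk1 was 1.96 (1.23 to 3.17), which exceeded counting error. The interval does not allow for the choice of Pfkm as the strongest of these peaks.

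Pfkfb2, whose enzyme makes and removes fructose 2,6-bisphosphate as a signal for glycolysis, had the weakest peak, with 9.63 (5.88 to 14.9, 20.0 tags) at chr1:130717434-130717914. The peak lay in a coding exon of Yod1, 436 bp upstream of an internal Pfkfb2 TSS and 11579 bp into the gene, and the Yod1 TSS was closer, at 347 bp. Pfkfb3 had no peak within 2.5 kb of a TSS, but a peak of 10.4 lay inside the gene, 18.7 kb from the nearest TSS. Pfkfb4 had its nearest peak at 54.9 kb. Both lactate dehydrogenase genes lacked a peak, with the nearest at 45.1 kb for Ldha and 108 kb for Ldhb, as did the glucose transporter genes Slc2a1 and Slc2a3, with the nearest at 186 and 178 kb.

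At the step from pyruvate to acetyl-CoA, Pdhb, a subunit of pyruvate dehydrogenase, had a signal of 14.2 (9.54 to 20.3) at chr14:8172613-8173093, 84 bp downstream of its TSS. Pdk1, a kinase that switches the complex off, had 13.0 (8.57 to 18.9) at chr2:71873247-71873727, 64 bp upstream. The ratio of these signals was 1.09 (0.626 to 1.91). Neither reached 8-fold over input, at 7.35 and 4.81. The kinase genes Pdk2, Pdk3 and Pdk4 had their nearest peak at 37.9, 320 and 750 kb, and the subunit gene Pdha1 at 2621 kb, the farthest of all 54 genes.

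In the pentose phosphate pathway, Pgls, which hydrolyses the lactone made by glucose-6-phosphate dehydrogenase, had a signal of 21.9 (16.0 to 29.3) at chr8:71592131-71592611, 80 bp downstream of its TSS and 9.45-fold over input. Taldo1, the transaldolase of the non-oxidative branch, had 11.1 (7.04 to 16.6) at chr7:141391704-141392184, 255 bp upstream and 28.7-fold over an input level of 0.387. This input level was as low as that of Hk1. The ratio of Pgls to Taldo1 was 1.97 (1.17 to 3.41). The dehydrogenase genes that make NADPH had none, with the nearest peak at 60.7 kb for G6pdx and 260.0 kb for Pgd, and Tkt and Rpia had their nearest at 68.4 and 375 kb.

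Pck2, the mitochondrial PEPCK that turns oxaloacetate into phosphoenolpyruvate, had the highest signal of the 54 genes, with 28.4 (21.6 to 36.6, 59.0 tags) at chr14:55539274-55539754. It was 12.2-fold over input and 6.93-fold over the surrounding 10 kb, and was centred 752 bp upstream of the gene start. It ranked 23 among the promoter peaks of other genes (percentile 99.3 of 3196). Its signal was within counting error of that of Pfkm (ratio 1.04, 0.708 to 1.52). The highest and the lowest signal of the list, those of Pck2 and Pfkfb2, had a ratio of 2.95 (1.75 to 5.17). This interval does not allow for their choice as the extremes. Their folds over input were close, at 12.2 and 12.5. Pcx, pyruvate carboxylase, which supplies the oxaloacetate, had no peak at a TSS, but a peak of 21.7 lay inside the gene, 20.9 kb from its nearest TSS and 163 bp from the TSS of Lrfn4.

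**Figure D2:**
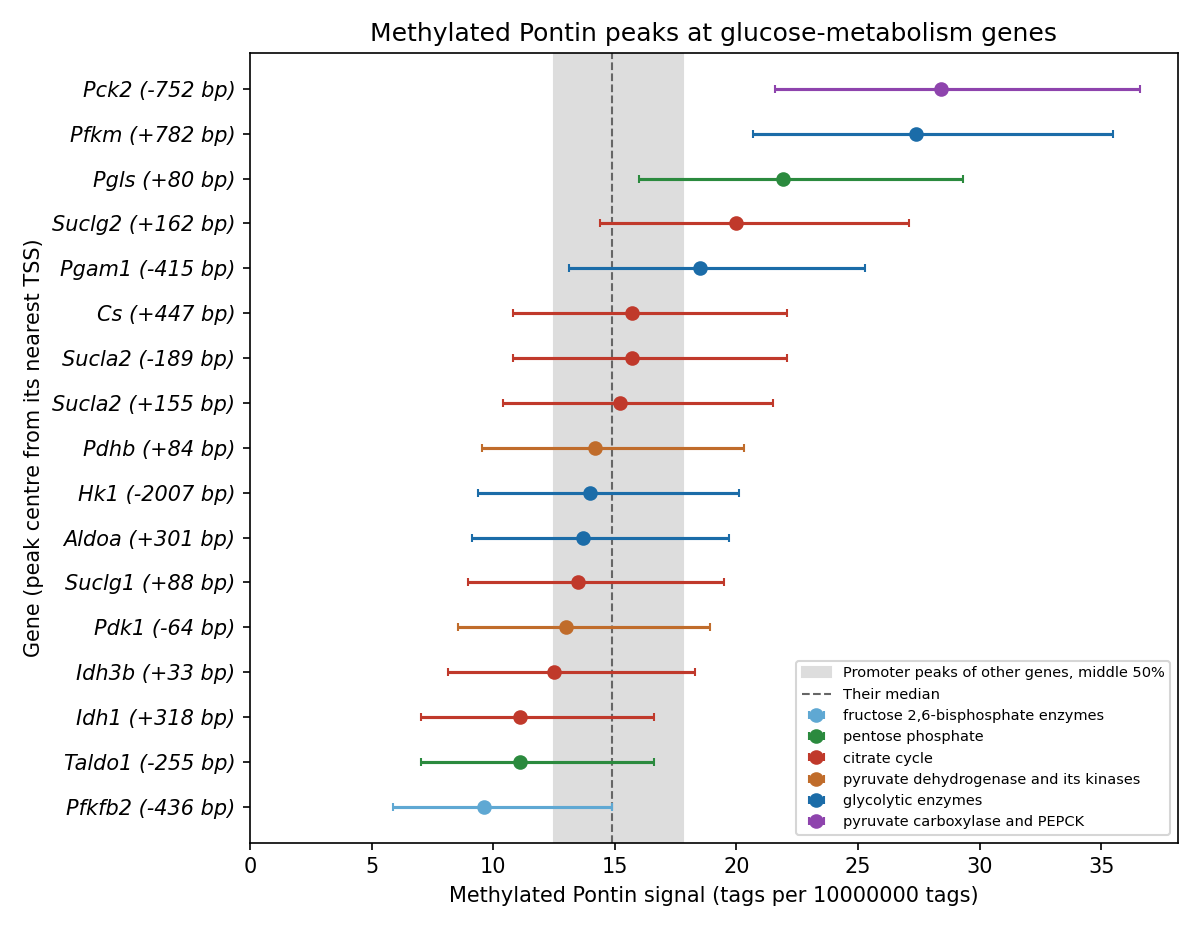
Signal of the 17 peaks at the 16 genes (x axis, tags per 10000000 tags) by gene, with the distance of the peak centre from the nearest TSS of the gene (minus for upstream). Points are coloured by pathway and bars are 95% Poisson intervals of the tag count. The grey band and the dashed line are the middle 50% (12.5 to 17.8) and the median (14.9) of the promoter peaks of other genes, and the lower limits of Pck2 and Pfkm lie above the band.

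Apart from these genes at the top, the heights of the peaks were spread like those of other genes. The median signal over the 16 genes, each taken at its highest peak, was 14.1 (range 9.63 to 28.4) against 14.9 for the 3196 promoter peaks of other genes, and 7 of 16 were at or above that median. The median fold over input was 9.79 against 9.10, and the median fold over the surrounding 10 kb 5.33 against 5.01. The peaks were also placed like others. Their centres lay a median of 255 bp from the TSS against 271 bp, and 14 of 17 (82.4%) were within 500 bp against 78.2%. Of the 17 peaks, 7 were upstream (41.2%), against 55.3% of the peaks of other genes. A TSS of a further protein-coding gene lay within 2.5 kb of 5 of the 17 peaks (29.4%) against 17.6%.

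The chromosome moved with the signal. Over the 19 autosomes, the median signal of promoter peaks of other genes ran from 11.6 on chromosome 7 to 20.0 on chromosome 8, and was 19.3 on chromosome 15 and 17.7 on chromosome 19. Pgls, on chromosome 8, was at percentile 92.6 of all promoter peaks of other genes but at percentile 68.2 of the 173 on its chromosome. Pgam1, on chromosome 19, went from percentile 79.7 to 57.5, and Aldoa, on chromosome 7, from 39.1 to 79.5. Pck2 stayed highest, at 1.91 times the median of its chromosome, above all 107 such peaks there, followed by Pfkm at 1.42 and Suclg2 at 1.39. The ratios of Pfkm to Hk1, of Pgls to Taldo1 and of Pck2 to Pfkfb2 are between chromosomes whose medians differ. Relative to the median of its chromosome, Pgls was at 1.09 and Taldo1 at 0.957, a smaller gap than that of their signals. On the same scale Pfkm was at 1.42 and Hk1 at 0.881, and Pck2 at 1.91 and Pfkfb2 at 0.770. For Pfkm and Hk1, and for Pgls and Taldo1, the folds over input stood in the reverse order. They were 11.8 for Pfkm against 36.1 for Hk1, and 9.45 for Pgls against 28.7 for Taldo1. However, the input level of Hk1 and of Taldo1 was 0.387, near the lowest under promoter peaks of other genes (0.367, median 1.55). Pfkm and Pgls had input levels of 2.31 and 2.32. The folds carry no counting interval, so their order is not shown to exceed counting error.

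**Figure D3:**
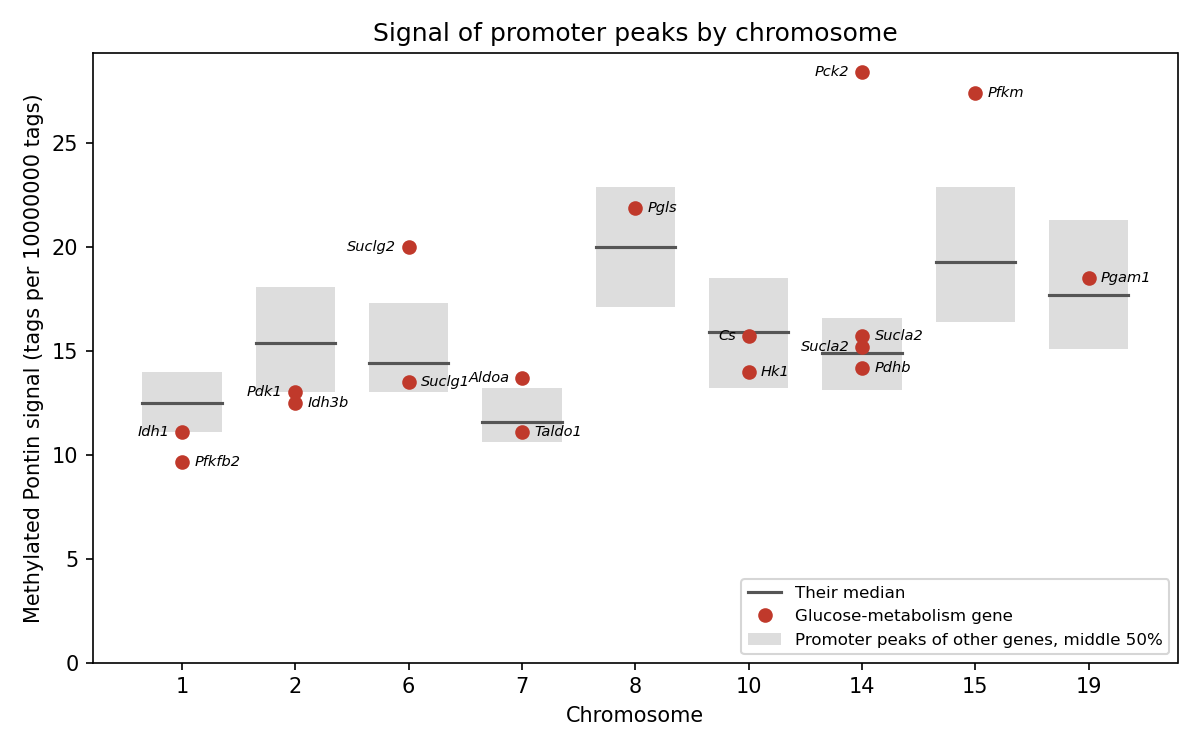
Signal (y axis, tags per 10000000 tags) of the peaks at the glucose-metabolism genes (red points, named) on each chromosome that holds one (x axis). Grey bars are the middle 50% and lines the median of promoter peaks of other genes on that chromosome. Pgls lies within the bar of chromosome 8, whose median is 20.0, and Pck2 lies far above that of chromosome 14.

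On the X chromosome, 0 of 5 genes (Pgk1, Pdha1, Pdk3, G6pdx and Idh3g) had a peak, where 34 of 943 other genes (3.61%) did. On the autosomes, 16 of 49 genes had a peak (32.7%) against 17.8% of other genes.

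Promoter GC content was no higher in the genes with a peak than in those without. Their median promoter GC content, over 500 bp on either side of the gene start, was 57.3% against 59.3% for the 38 genes without a peak, whereas other genes with a peak had 58.5% against 53.6%. Pfkfb2, Sucla2, Hk1 and Pfkm were the 4 genes of the list with a promoter GC content under 50%, and all 4 had a peak, against 5.70% of 7123 other genes. At 50% or more, 12 of 50 had a peak (24.0%) against 22.5% of other genes. In all 4 the GC content at the gene start was lower than that at the peak, whose central 200 bp had 50.5% for Hk1, 68.0% for Pfkfb2, 66.0% for Pfkm, and 63.0% and 75% for the pair at Sucla2. The peaks of Hk1 and Pfkfb2 and the Sucla2 peak inside the gene lay far from the gene start. This Sucla2 peak was 155 bp from an internal TSS, and the Hk1 peak 2007 bp from one. The Pfkfb2 peak was 436 bp from an internal TSS but 347 bp from that of Yod1. The Pfkm peak lay by the Senp1 TSS. When the gene start alone was used in place of every TSS, 14 genes kept a peak, Hk1 and Pfkfb2 lost theirs, and the difference from other genes at like GC content was 5.0 points.

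**Figure D4:**
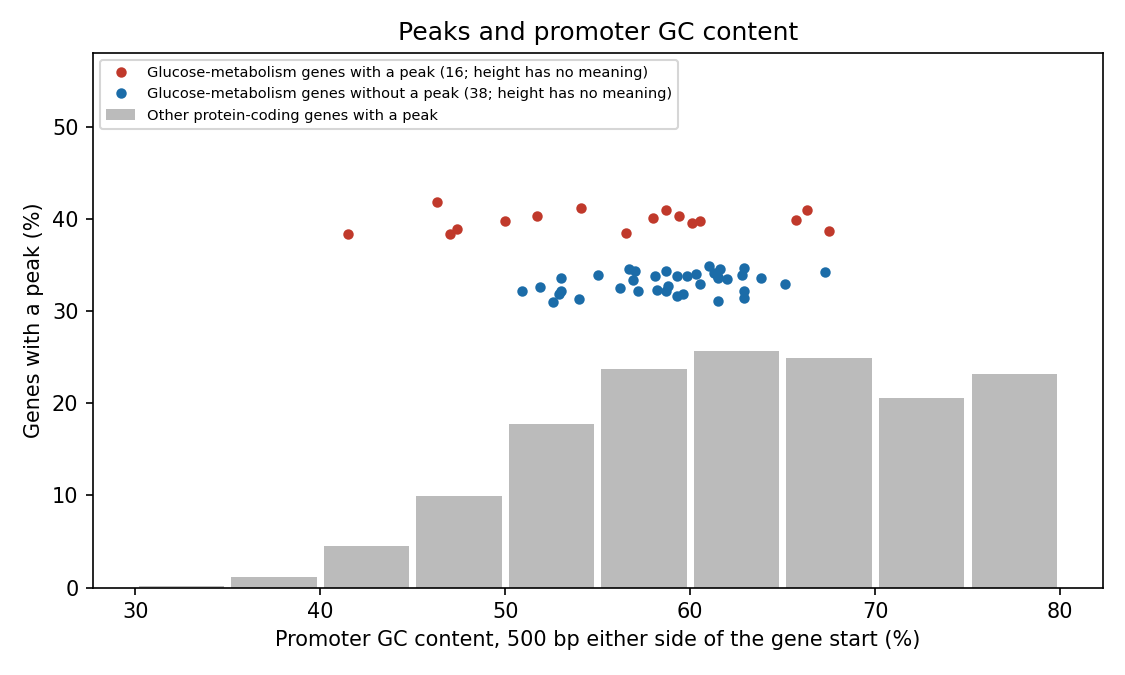
Share of other protein-coding genes with a methylated Pontin peak (grey bars, y axis, %) by promoter GC content (x axis, %, in steps of 5). Points mark the promoter GC content of the 16 glucose-metabolism genes with a peak (red) and the 38 without (blue), and their height has no meaning. The bars rise to 25.7% at 60 to 65%, while the 4 genes below 50% are all red.

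The 38 genes without a promoter peak had their nearest peak at a median of 86.5 kb, against 134 kb for other genes without one. For 16 of them (42.1%) it lay over 100 kb away, against 57.2%. The distances are not matched on promoter GC content, whose median was 59.3% in the 38 genes and 53.6% in other genes without a peak. Gpi1, glucose phosphate isomerase, was just outside the limit at 2.63 kb upstream, as Aldoc was at 3.27 kb, where the peak lay by the TSS of Pigs, and Hk1 was just inside at 2.01 kb. Next came Gys1, glycogen synthase, at 9.14 kb from a peak at Ftl1, Pygb, a glycogen phosphorylase, at 12.3 kb from a peak at Abhd12, and Dlst, a subunit of the oxoglutarate dehydrogenase complex, at 16.2 kb from a peak at Prox2. The farthest were Pdha1 at 2621 kb, Fh1 at 1818 kb, Pgk1 at 1107 kb, Pdk4 at 750 kb and Idh3g at 468 kb. Gapdh had a peak of 19.7 at 25.8 kb, 93 bp from the TSS of Mrpl51. Tpi1 and Eno2 had the same nearest peak, 5205 bp from the TSS of Lag3.

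**Figure D5:**
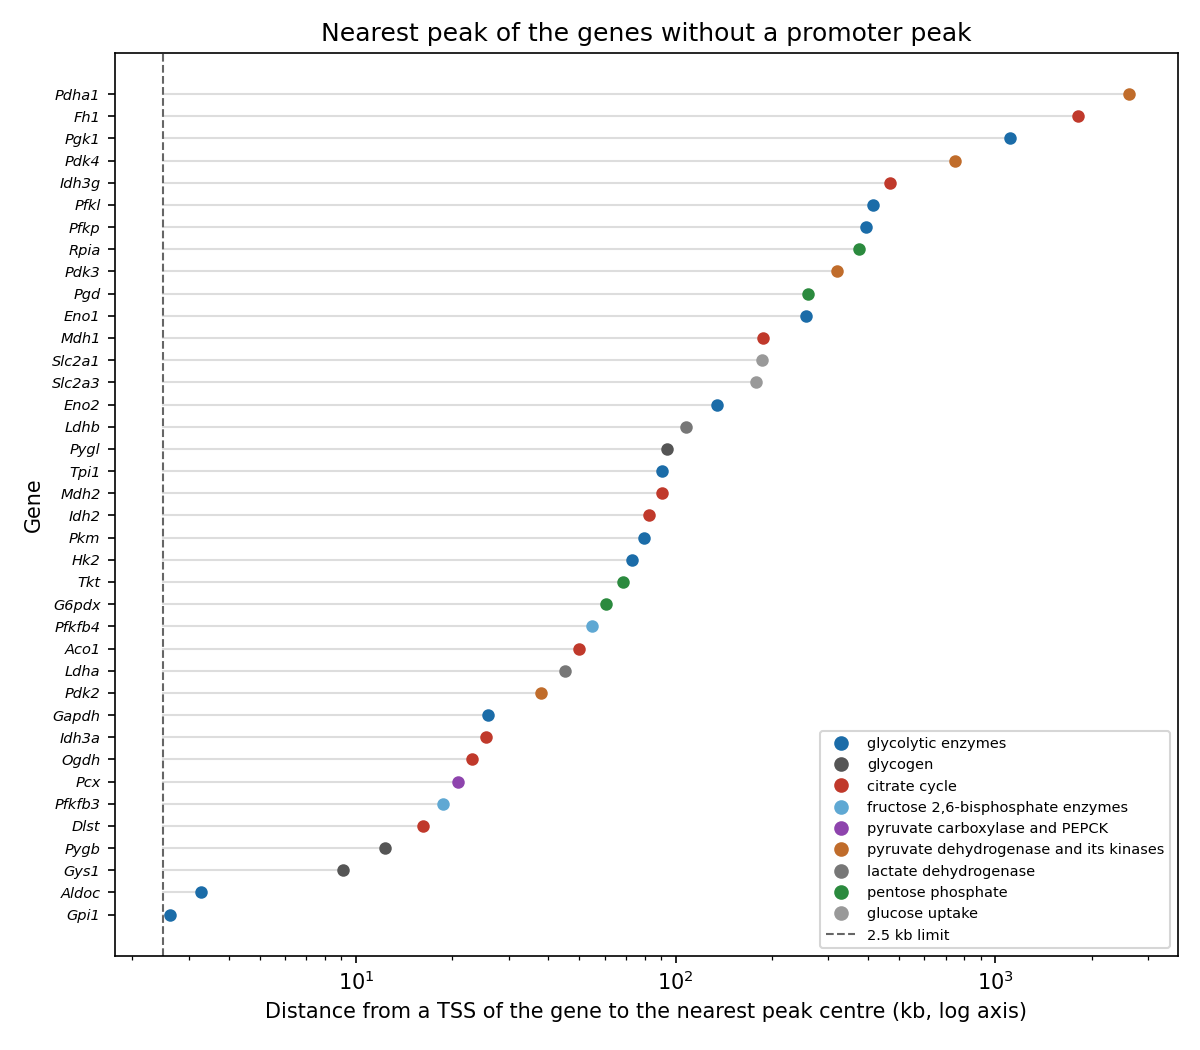
Distance from the closest TSS of each of the 38 genes without a promoter peak to the nearest peak centre (x axis, kb, log axis), by gene and coloured by pathway. The dashed line is the 2.5 kb limit. Gpi1 lies just beyond it at 2.63 kb, and Pdha1 lies farthest at 2621 kb.

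Among 58 further genes of the same pathways, 14 had a peak (24.1%, Wilson interval 15 to 36.5%), against 20.3% of other genes at like GC content, again within counting error. Near pyruvate dehydrogenase, these included Dlat (14.0) and Dld (16.9), its acetyltransferase and lipoamide dehydrogenase subunits, Pdp2 (19.0), a phosphatase that switches the complex on, and Mpc1 (10.1), a subunit of the mitochondrial pyruvate carrier. Mpc2, Pdhx, Pdp1, Pdpr and Pdha2 had none. In and around the citrate cycle, Sdhb (16.4) and Sdhc (12.5), subunits of succinate dehydrogenase, and Acly (13.2), which splits citrate in the cytosol, had a peak, and Sdha and Sdhd had none. Elsewhere, peaks lay at Slc16a1 (21.2), a lactate and pyruvate transporter, G6pc3 (19.3), a glucose-6-phosphatase, Bpgm (17.8), bisphosphoglycerate mutase, Ugp2 (12.3), which makes UDP-glucose, Shpk (12.0), sedoheptulokinase, and Pgam5 (9.87), a mitochondrial phosphatase. The peak of Shpk was shared with the lysosomal cystine transporter gene Ctns.

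The central 200 bp of the 17 peaks were searched on both strands for 8 motifs. FOXO3a (GTAAACA), TFEB (TCACGTG), CREB1 (TGACGTC), E2F1 (GCGGGAA) and NRF1 (GCATGCG) were in 0 of 17, where 1.75, 1.69, 0.782, 4.82 and 1.22% of other promoter peaks held them, so fewer than 1 peak would carry each at those shares. The HIF-1 core (ACGTG, which is also part of the TFEB motif) was in 2 peaks, Pfkm and Pgam1 (11.8% against 15.5%). The GC box (GGGCGG) was in 4, Sucla2, Pdk1, Idh3b and Pfkfb2 (23.5% against 26.3%), and the ETS motif (CCGGAAG) in 3, Pfkm, Pdhb and Idh3b (17.6% against 5.23%). Over the whole peak, the HIF-1 core was in 6 of 17 (35.3% against 35.7%), the GC box in 6 (35.3% against 52.8%) and the ETS motif in 6 (35.3% against 18.6%). The E2F1 motif was in the Pfkm peak and the CREB1 motif in the Aldoa peak (5.88% each, against 11.3% and 4.32%), and the FOXO3a, TFEB and NRF1 motifs were in 0, against 4.41, 6.35 and 5.51%. These are matches of letters in a window and no more. The shares of peaks carry no counting interval and are not matched on GC content. In the central 200 bp, the median GC content was 63.0% in the 17 peaks and 56.5% in other promoter peaks.

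The promoters of the genes were searched for the same motifs. RefSeq promoters on GRCm38.p6, running from 250 bp before to 50 bp after the start, were matched for 52 of the 54 genes (not for Slc2a3 and Idh3a). The core was in a promoter of 23 of 52 genes (44.2%), against 23.6% of 16470 other genes, and among them were Slc2a1, Hk2, Gapdh, Pgk1, Pkm and Ldha. These shares are not matched on GC content, which had a median of 58.8% in the 54 genes and 54.7% in other genes, or on the number of promoters, which was 76 for 52 genes and 20074 for 16470. It was in 6 of the 16 genes with a methylated Pontin peak (37.5%) and in 17 of the 36 without (47.2%). GC boxes were in 76.9% of the genes against 50.9% of other genes, and in 75% and 77.8% of those with and without a peak. The other motifs were compared without matching as well. FOXO3a was in 1 of 52 genes, Aldoc (1.92% against 3.50%), and ETS in 5 (9.62% against 13.4%). TFEB, CREB1 and E2F1 were in 5 each (9.62%, against 5.14, 4.48 and 7.06%), and NRF1 in 4 (7.69% against 5.12%).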

How the data were processed

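Methylated Pontin ChIP-seq of MEFs under glucose starvation was analysed from its peak list. For this list the authors mapped read pairs with Bowtie2 (genome GRCm38). HOMER 4.7.2 findPeaks then called peaks against an input at a false discovery rate of 0.001 (tag threshold 18), and each peak had to exceed the input and the surrounding 10 kb 4-fold with a Poisson p-value of at most 0.0001. The deposited signal is the tag count per 10000000 tags, scaled by the authors. The deposited score ranked peaks in an alternative. The folds over input and over the local region are ratios that the authors computed within this library, and they were used as measures of a peak. The p-values beside them are also the authors' and were not used. The header does not tie 1 further column of tags to a library, and it was left out.

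Distances ran from the peak centre to any TSS of GENCODE vM21, counting a peak for every gene within 2.5 kb. Genes were joined by symbol, so that records sharing a symbol were merged (as for Aldoa). For the GC comparison, the share of other genes with a peak in strata of 5 points was averaged over the genes described. Tags were recovered as signal times depth, and Poisson, Wilson and binomial intervals were at 95%. The median peak had 29.5 tags. The assignment of peaks and the GC comparison were tested on simulated data. Every gene with a peak was named, with the 5 nearest and 5 farthest of the others and isozymes of a reaction, and further genes named were chosen after their values were seen. Some genes, although counted, are not reported here by name. The genes, lists and motifs were chosen with earlier results of these data known. Alternatives covered distance limits of 1 and 5 kb, other TSS sets, stricter peaks and other strata. Scripts ran under Python 3.11.15 with pandas 2.3.3 and NumPy 2.4.6 for tables, SciPy 1.17.1 for intervals, and matplotlib 3.10.9 for plots.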

Additional observations from a re-analysis of the deposited data

How the results depend on the processing

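The number of the 54 genes with a peak ran from 8 to 18 over 8 alternatives. It fell to 10 with peaks at least 8-fold over input, and to 8 with the 2155 peaks with the highest score. Under both, the glycolytic enzymes had 2, the citrate cycle 4 and pyruvate dehydrogenase and its kinases 0 of 6, and under the latter the pentose phosphate group had 1 and the further pathway genes 8. These alternatives keep fewer peaks by construction. Pfkfb2, the peak of its group, was lost under the latter, with the gene start alone and with the nearest TSS alone. At 5 kb, Gpi1 and Aldoc were added. The difference from other genes at like GC content stayed positive, at 2.3 to 9.8 points over 13 alternatives, each within −3.1 to 20.6. The alternative matching on GC content and chromosome (9.0 points), and the median signal scaled to equal chromosome medians (14.5), were chosen after seeing the data. Under the 6 alternatives that kept all peaks, the citrate cycle had 6. No paired analysis was possible because there was 1 ChIP library with values and nothing to pair it with. Regions under the tag threshold of 18 cannot be seen in the list, so a gene without a peak is not shown to lack methylated Pontin.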
